A study of Mus musculus with 36 samples.

Results

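The genes described here are the Klk1b kallikreins Klk1b21, Klk1b24, Klk1b26, Klk1b27 and Egfbp2, a set of 5 of the 19057 genes named on the array. They were chosen from the readout itself, as genes whose signal in Brdt knockout testis at 20 days post partum (dpp) lay above that of both control ages, so the values of the knockout at 20 dpp are given as a description with no test. The 5 genes had 10 probes, each kept apart because the copies are near-identical, and 9 of them passed the filter on dim probes (detected in at least 3 of 24 animals). Egfbp2 and Klk1b22 stand apart in the platform annotation, with 1 probe each. The RefSeq gene table gives Egfbp2 as a synonym of Klk1b26, and gives Egfbp1 and EGF-BP A as synonyms of Klk1b22, so the Klk1b22 probe is shown beside the members and is not counted among them.

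RNA of whole testis from juvenile C57BL/6 mice was hybridised to 36 single-colour bead arrays. Brdt, a testis-specific protein with a pair of bromodomains that bind acetylated histones, is the gene altered, and the mice carried either a knockout allele of it or an allele that lacks its first bromodomain (BD1). The 36 arrays came from 24 animals, which are the replicates. At 17 dpp there were 4 homozygous knockout animals (KO-/-, numbers 72, 73, 122 and 129) and 6 heterozygous animals (KO+/-). At 20 dpp there were 3 animals homozygous for the BD1 deletion (BD1-/-, numbers 193, 197 and 222) and 4 controls of that line, of which animals 219 and 191 were heterozygous (BD1+/-) and animals 195 and 196 wild type (BD1+/+). At 20 dpp there were also 4 homozygous knockout animals (numbers 139, 140, 148 and 152) and 3 wild-type animals of the knockout line (KO+/+, numbers 146, 149 and 157). The heterozygous animals at 17 dpp carried 1 knockout allele, so no wild-type group of that age stands beside them.

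Tissue kallikreins are secreted serine proteases that cut peptide hormones and growth factor precursors out of larger proteins, the classical case being the release of kinins from kininogen. The mouse has expanded its Klk1b genes into a tandem cluster on chromosome 7, and their best known site is the submandibular gland, where members process or bind epidermal growth factor, nerve growth factor and renin precursors. In the mouse testis Klk1b21, Klk1b24 and Klk1b27 are known as products of Leydig cells, the interstitial cells that make androgens. Klk1b26 is known as a prorenin converting enzyme, and Egfbp2 as an epidermal growth factor binding protein.

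The arrays detected 17379 to 20016 probes each, and array medians lay between 118 and 153 signal units before normalization. Of 11 Sertoli cell genes on the array 11 passed the filter, as did 8 of 10 pachytene spermatocyte genes. Of 3 Brdt probes 1 was detected on no array. Probe 3 read 5.28 to 6.71 in knockout animals against 8.47 to 9.52 in heterozygous animals at 17 dpp on the log2 scale, and 7.23 to 8.28 in knockout animals against 11.4 to 11.6 in wild-type animals at 20 dpp. In the BD1 line it read 10.2 to 10.5 in BD1 deletion animals against 10.8 to 11.7 in controls. Probe 2 read 6.97 to 7.78 in knockout against 8.67 to 9.29 in heterozygous animals at 17 dpp, 7.59 to 8.56 in knockout against 10.4 to 10.5 in wild-type animals at 20 dpp, and 9.68 to 9.96 in BD1 deletion animals against 9.80 to 10.6 in controls, which overlap. Whether these probes lie in the deleted parts of the gene is not given.

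The promoters are shown because the probes of these genes moved together from animal to animal, as described below. RefSeq (GRCm38.p6) gave a promoter window of 300 bases, 250 before and 50 from a start it assigns, for 4 of the 5 members, on the forward strand of chromosome 7. The capitals mark matches of 3 motifs of the 5 searched on both strands: TTTAAA (similar to the TATA element), AGAACA (an element bound by steroid receptors such as the androgen receptor) and AGGTCA (an element bound by nuclear receptors such as Nr5a1), which stands on the reverse strand in each case shown and so reads TGACCT.
Klk1b21, chr7:44102042-44102341: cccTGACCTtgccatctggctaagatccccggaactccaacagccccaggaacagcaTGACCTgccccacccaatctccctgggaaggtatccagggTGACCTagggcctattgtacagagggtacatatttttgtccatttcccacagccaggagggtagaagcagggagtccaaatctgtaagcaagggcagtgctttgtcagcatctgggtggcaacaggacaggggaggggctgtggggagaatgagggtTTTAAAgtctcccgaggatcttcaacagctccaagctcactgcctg
Klk1b24, chr7:44187986-44188285: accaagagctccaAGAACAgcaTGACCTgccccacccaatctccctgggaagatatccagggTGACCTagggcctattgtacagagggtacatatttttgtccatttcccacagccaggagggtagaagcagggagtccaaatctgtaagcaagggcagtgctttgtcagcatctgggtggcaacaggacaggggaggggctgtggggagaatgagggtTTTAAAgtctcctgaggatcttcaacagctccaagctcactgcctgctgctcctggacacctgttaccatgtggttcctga
Klk1b26, chr7:44012428-44012727: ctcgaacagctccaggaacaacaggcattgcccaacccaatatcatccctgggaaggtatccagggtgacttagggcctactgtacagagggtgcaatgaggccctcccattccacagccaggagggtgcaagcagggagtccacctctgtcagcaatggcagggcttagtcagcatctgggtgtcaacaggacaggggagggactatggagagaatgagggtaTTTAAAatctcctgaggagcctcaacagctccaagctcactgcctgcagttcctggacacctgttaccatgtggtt
Klk1b27, chr7:44052040-44052339: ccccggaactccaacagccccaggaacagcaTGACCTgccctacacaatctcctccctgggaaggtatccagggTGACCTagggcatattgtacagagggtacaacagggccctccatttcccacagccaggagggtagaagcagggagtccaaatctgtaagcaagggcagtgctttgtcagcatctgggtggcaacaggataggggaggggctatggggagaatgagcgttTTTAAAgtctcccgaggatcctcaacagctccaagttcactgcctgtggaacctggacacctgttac
The Klk1b21 and Klk1b24 windows were identical at 263 of 265 aligned bases (99.2%), the stretch being offset against the annotated starts. The other 5 pairs were identical at 86.2% to 94.5% of their aligned bases, with Klk1b26 the most distant. TTTAAA was found once in each of the 4 windows, beginning 31, 26 and 17 bases before the start in Klk1b24, Klk1b26 and Klk1b27 and at base 5 after it in Klk1b21. Of 32851 mouse promoters of this length 13.2% held this motif. The motif AGGTCA was found 3 times in the Klk1b21 window and 2 times each in those of Klk1b24 and Klk1b27, and 16.3% of all promoters held it. AGAACA was found once, in the Klk1b24 window (19% of all promoters). TATAAA (13.6% of all promoters) and TGACG (20.8%), an element of cyclic AMP response sites, were found in none of the 4 windows. The matches did not overlap each other, and the same search over 14 promoters of the Klk1b cluster and Klk1 found TTTAAA in 13 and AGGTCA in 11 of them. In the gene table the span of Klk1b21, which begins at base 44004616 and ends at base 44106583, encloses those of Klk1b26 and Klk1b27. The Klk1b21 window shown therefore lies far inside that span and not at its beginning, and the Klk1b21 motif positions and identities hold for this window only.

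Klk1b21 had 3 probes, of which probe 1 was detected on all 36 arrays, with raw signals between 208 and 2682 units. On the normalized log2 scale, which is used for every level and difference below, Klk1b21 probe 1 read 8.66, 8.82, 6.66 and 8.00 in knockout animals 72, 73, 122 and 129 at 17 dpp, against a lowest value of 7.07, a median of 7.57 and a highest value of 8.14 in the 6 heterozygous animals. At 20 dpp it read 9.50, 9.60 and 9.57 in BD1 deletion animals 193, 197 and 222, against 9.26, 9.66, 10.53 and 7.80 in BD1 controls 219, 191, 195 and 196. In the knockout line at 20 dpp it read 9.49, 10.23, 10.51 and 10.98 in knockout animals 139, 140, 148 and 152, against 9.58, 8.33 and 9.17 in wild-type animals 146, 149 and 157. Of the 4 knockout animals at 20 dpp, 3 thus stood above all wild-type animals of their line and animal 139 did not, while the BD1 deletion animals lay close together inside a wide control range. Probes 2 and 3 of Klk1b21 were dim. Probe 2 was detected on 6 of 6 knockout arrays at 20 dpp and 3 of 6 wild-type arrays, and on 1 of 6 knockout and 0 of 6 heterozygous arrays at 17 dpp. Probe 3 was detected on 6 of 6 knockout and 4 of 6 wild-type arrays at 20 dpp, and on 1 of 6 arrays of each genotype at 17 dpp.

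Klk1b24 probe 1 followed the same course. It read 7.65, 7.89, 5.89 and 7.00 in knockout animals 72, 73, 122 and 129 at 17 dpp, against 6.15 to 7.54 (median 6.53) in heterozygous animals. At 20 dpp it read 8.26, 8.24 and 8.32 in BD1 deletion animals 193, 197 and 222, against 8.06, 8.17, 8.91 and 6.51 in BD1 controls 219, 191, 195 and 196. It read 8.24, 9.15, 9.38 and 9.75 in knockout animals 139, 140, 148 and 152 at 20 dpp, against 8.50, 7.35 and 8.07 in wild-type animals 146, 149 and 157. Here too the groups overlapped at both ages. Klk1b24 probe 2 read 7.25 to 8.74 in knockout animals at 20 dpp, against 6.27 to 7.24 in wild-type animals, without overlap.

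Klk1b27 probe 1 read 7.34, 7.41, 5.70 and 6.83 in knockout animals 72, 73, 122 and 129 at 17 dpp, against 5.64 to 7.04 (median 5.91) in heterozygous animals. At 20 dpp it read 8.38, 8.66 and 8.39 in BD1 deletion animals 193, 197 and 222, against 8.35, 8.56, 9.72 and 6.53 in BD1 controls 219, 191, 195 and 196. It read 8.27, 9.27, 9.48 and 9.97 in knockout animals 139, 140, 148 and 152 at 20 dpp, against 8.50, 7.37 and 8.12 in wild-type animals 146, 149 and 157. Control animals 195 and 196, wild-type littermates, again stood at opposite ends of their group. Klk1b27 probe 2 read 7.48 to 9.35 in knockout animals at 20 dpp, against 6.77 to 7.89 in wild-type animals.

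Klk1b26 probe 1 read 6.80, 6.50, 5.26 and 6.15 in knockout animals 72, 73, 122 and 129 at 17 dpp, against 5.26 to 6.26 (median 5.78) in heterozygous animals. At 20 dpp it read 7.02, 7.08 and 7.07 in BD1 deletion animals 193, 197 and 222, against 6.67, 6.98, 7.67 and 5.50 in BD1 controls 219, 191, 195 and 196. It read 7.00, 7.80, 7.98 and 8.30 in knockout animals 139, 140, 148 and 152 at 20 dpp, against 7.00, 6.16 and 6.57 in wild-type animals 146, 149 and 157. Klk1b26 probe 2 was above background on 0 of 36 arrays and gave no level, so the probes of this gene disagreed on whether it was detected.

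Egfbp2 was dim. It was detected on 5 of 6 knockout arrays at 20 dpp, on 1 of 6 BD1 deletion arrays and on none of the other 24 arrays, so it passed the filter only through the group it was chosen for. It read 5.80, 5.64, 5.57 and 6.35 in knockout animals 139, 140, 148 and 152 at 20 dpp, against 5.24, 4.79 and 4.54 in wild-type animals 146, 149 and 157, where it was not well above background. The difference is therefore a bound, with Egfbp2 at least 1.19-fold higher in the knockout at 20 dpp than in wild type and at least 1.21-fold higher than in heterozygous animals at 17 dpp. These bounds, and the like ones below, set the mean of the brighter group against the lowest signal detected on each array of the dimmer one. The Klk1b22 probe was detected on 1 of 36 arrays, that of BD1 control animal 191, and read 4.65 to 4.88 in knockout animals at 20 dpp, against 4.51 to 4.94 in wild-type animals.

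**Figure D1:**
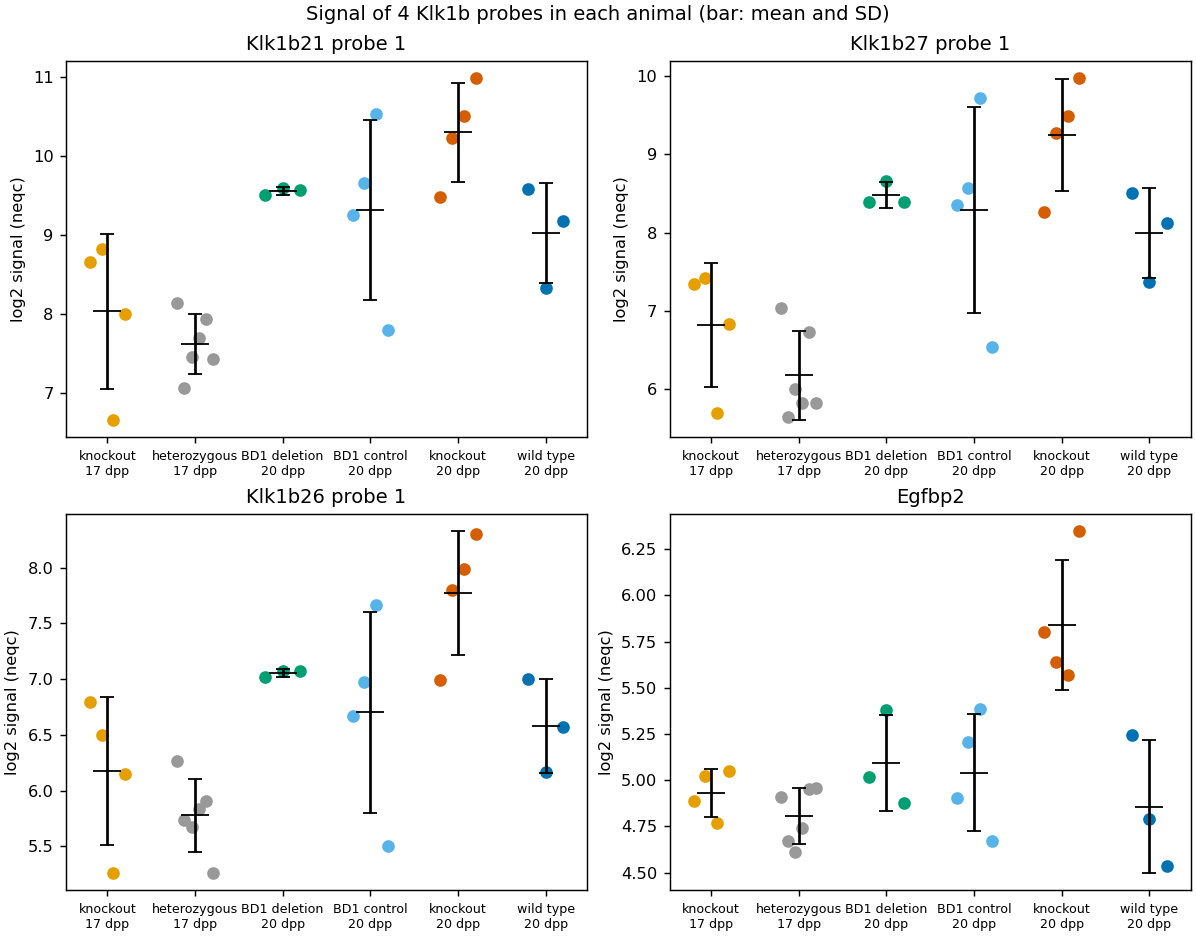
Normalized log2 signal (vertical axis) of Klk1b21 probe 1, Klk1b27 probe 1, Klk1b26 probe 1 and Egfbp2 in the 6 groups, with 1 point per animal and a bar for the mean and SD of the group (n = 3 to 6 animals). The knockout at 20 dpp has the highest mean in each panel, and 1 of its 4 animals lies within the wild-type range in all panels but that of Egfbp2.

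The rule that chose the members is visible in the knockout at 20 dpp. Here and below, a probe counts as detected in a group when at least 1 array of that group detected it. The 8 probes detected in both groups averaged higher in the knockout than in wild type, by 1.13 (Klk1b21 probe 3) to 1.29 (Klk1b27 probe 2) on the log2 scale, with a median of 1.22, or 2.33-fold. With Egfbp2 added at its bound the median over 9 probes was 1.19. The median over all 21190 tested probes was 0.22, and 53.8% of them were called in this comparison (limma, Benjamini-Hochberg adjusted p under 0.05), so nothing is read from the number of members. The knockout animals did not overlap the wild-type animals at 2 of the 8 probes, Klk1b21 probe 3 and Klk1b24 probe 2, where 37.8% of all tested probes stood higher without overlap. Knockout animals 148 and 152 and the 3 wild-type animals came from litter 1, and knockout animals 139 and 140 from litter 2. The median difference within litter 1 was 1.59, which describes the same values that chose the members.

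Against the heterozygous animals at 17 dpp, the other reference of the rule, the knockout at 20 dpp averaged higher at the 7 probes detected in both groups, by 1.70 (Klk1b21 probe 3) to 3.07 (Klk1b27 probe 1), with a median of 2.51, or 5.68-fold. These 7 probes stood higher without overlap, as did 4.76% of all tested probes, and the median over all tested probes was -0.02. Klk1b21 probe 3 was detected on only 1 of 6 heterozygous arrays, so its 1.70 is measured from near background. Klk1b21 probe 2 was detected on no heterozygous array and was at least 2.59-fold higher in the knockout. With Klk1b21 probe 2 and Egfbp2 at their bounds the median over 9 probes was 2.47. Without background correction the median over 9 probes was 1.31, and with the authors' processed matrix it was 1.31 too.

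The knockout samples at 20 dpp are shared by both of these comparisons, and the heterozygous samples at 17 dpp by the next, so each is described by its own values. Between the control groups, wild-type animals of the knockout line at 20 dpp stood above heterozygous animals at 17 dpp by a median of 1.32 over the 7 probes detected in each group, and BD1 controls at 20 dpp by 1.51, at a median over all tested probes of -0.24 and -0.22. Age and genotype differ together in both comparisons, and the line differs as well in that with the BD1 controls. The single animals overlapped between wild type at 20 dpp and heterozygous at 17 dpp at most of these probes. The share of all tested probes that did so was not computed. The knockout at 20 dpp, whose values chose the members, stood above the knockout at 17 dpp by a median of 2.07 at the 8 probes detected in both. The median over all tested probes was -0.06. Of the 8 probes, Klk1b21 probes 2 and 3 were each detected on only 1 of 6 knockout arrays at 17 dpp. BD1 controls and wild-type animals of the knockout line, both at 20 dpp, differed by -0.09 to 0.29.

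Egfbp2 and Klk1b21 probes 2 and 3, near background at 17 dpp, enter the mean of the 9 probes. That mean summarises each animal on this scale. It averaged 6.16 ± 0.67 in the knockout and 5.80 ± 0.37 in heterozygous animals at 17 dpp (SD, n = 4 and 6), 7.26 ± 0.09 in the BD1 deletion and 7.03 ± 0.97 in its controls (n = 3 and 4), and 8.09 ± 0.57 in the knockout and 6.90 ± 0.48 in wild type at 20 dpp (n = 4 and 3). Ordered by level, the knockout at 20 dpp stood first, followed by the BD1 deletion, its controls, wild type, the knockout at 17 dpp and heterozygous animals. The BD1 deletion, BD1 control and wild-type groups were neighbours in this order that did not differ beyond their spread, and neither did the knockout and heterozygous groups at 17 dpp.

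**Figure D2:**
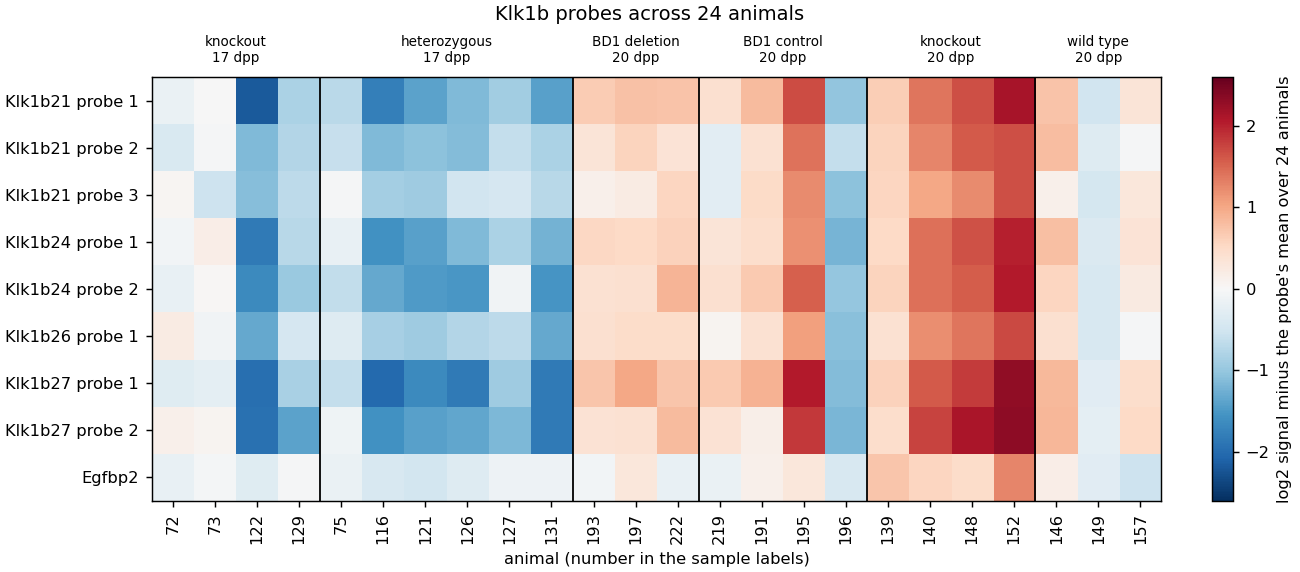
Log2 signal of each Klk1b probe minus its own mean over the 24 animals (colour), with probes down the page and animals across it in their 6 groups. Within most animals the 8 probes above Egfbp2 share a direction, with animals 122 and 116 lowest at 17 dpp, control animals 195 and 196 apart in the BD1 line, and animal 152 highest at 20 dpp.

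At 17 dpp the question was whether the probes already differed between knockout and heterozygous animals, the heterozygous animals having also been a reference in the choice. No probe passed the test. The 7 probes detected in both groups averaged higher in the knockout, by 0.01 (Klk1b21 probe 3) to 0.64 (Klk1b27 probe 1), with a median of 0.42 against 0.03 over all tested probes. Of the 7 probes 0 were called (limma, lowest adjusted p 0.549) and 0 had an unadjusted p under 0.05, where 1.21% of all tested probes were called. For Klk1b27 probe 1 the difference was 0.64 ± 0.45 (SE), with a 95% interval of -0.28 to 1.57, and for Klk1b21 probe 1 it was 0.42 ± 0.42, with an interval of -0.44 to 1.28. The upper ends of the intervals ran from 0.66 (Klk1b21 probe 3) to 1.57 (Klk1b27 probe 1, 2.96-fold). Knockout animal 122, which had the lightest testis (9 mg), gave the lowest value of its group at all 9 probes. Without it the differences of Klk1b27 probe 1 and Klk1b21 probe 1 were 1.02 and 0.87, and 0 of the 7 probes were called. The difference of Klk1b21 probe 3 was -0.20 without knockout animal 72 and 0.19 without knockout animal 122. Klk1b21 probe 2 in heterozygous animals, and Egfbp2 in both groups, were not well above background, so these probes have no fold and are left out of the counts. Klk1b21 probe 3 is kept in the counts but was detected on only 1 of 6 arrays of each genotype. Its difference of 0.01 and its interval end of 0.66 therefore lie near background and are not a well measured fold.

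The BD1 deletion is a comparison in animals that played no part in the choice of members. Egfbp2 was not well above background in the controls and is left out. The other 8 probes averaged higher in the BD1 deletion than in its controls, by 0.15 (Klk1b24 probe 2) to 0.36 (Klk1b24 probe 1), with a median of 0.22 against 0.11 over all tested probes. Of the 8 probes 0 were called (lowest adjusted p 0.560) and 0 had an unadjusted p under 0.05, where 7.63% of all tested probes were called. For Klk1b21 probe 1 the difference was 0.25 ± 0.49 (SE, 95% interval -0.77 to 1.26), and for Klk1b26 probe 1 it was 0.35 ± 0.38 (-0.44 to 1.15). The upper ends of the intervals ran from 0.95 (Klk1b21 probe 2) to 1.40 (Klk1b27 probe 2, 2.64-fold). The direction rested on 1 animal. Without BD1 control 196 all 8 differences turned negative, with Klk1b21 probe 1 at -0.26 and Klk1b27 probe 1 at -0.40, and without BD1 control 195 they stood at 0.65 and 0.66 for the same probes, with 0 of 8 called in both cases. The knockout effect at 17 dpp minus the BD1 effect lay between -0.20 and 0.45 at the 7 probes detected in all 4 groups, and 0 of these were called (lowest adjusted p 0.838, 0 at an unadjusted p under 0.05), where 2.78% of all tested probes were called.

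**Figure D3:**
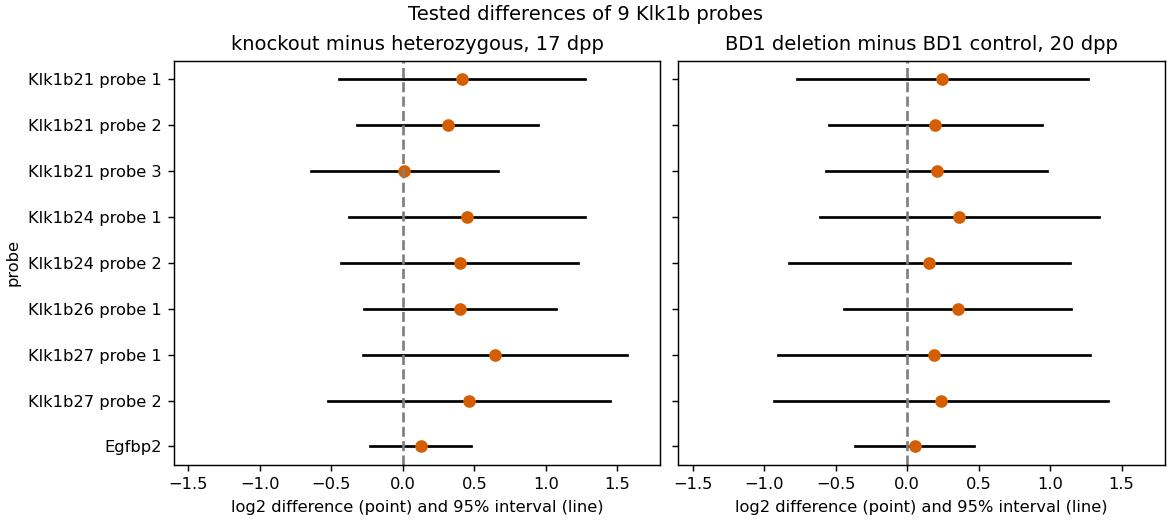
Log2 difference of each of the 9 Klk1b probes (points) with its 95% interval from limma (lines), for knockout minus heterozygous at 17 dpp (left) and BD1 deletion minus BD1 control at 20 dpp (right). Every interval crosses 0. Egfbp2 in both panels, and Klk1b21 probe 2 on the left, were not well above background in the group they are set against and are drawn for completeness.

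The Klk1b probes varied between animals of 1 group more than most probes of the array. Their SD between animals within groups was 0.52 to 0.83 for the 8 probes of Klk1b21, Klk1b24, Klk1b26 and Klk1b27, which lies at percentiles 96.2 to 99.4 of all tested probes, whose median was 0.24. Egfbp2 had 0.26 (percentile 61.8). The 12 animals with 2 arrays gave an SD between arrays of 1 animal of 0.15 to 0.30, so for the 8 probes most of the spread lay between animals. The widest spread was among the BD1 controls. Animals 195 and 196, wild-type littermates with 2 arrays each, averaged 8.14 and 5.79 over the 9 probes, while the 3 BD1 deletion animals of 3 litters averaged 7.16, 7.29 and 7.32. The labels do not say whether 2 arrays of an animal carry separate RNA extracts.

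The probes rose and fell together. Over 24 animals the 28 pairs among these 8 probes had Pearson correlations of 0.92 to 0.99, and of 0.84 to 0.98 after each group's mean was taken off. Probes of the same gene were no closer than that, at 0.93 to 0.97. Egfbp2 correlated with the other probes at 0.71 to 0.82, and at 0.42 to 0.67 within groups. The points share arrays and normalization, the copies are near-identical in sequence, and cross-hybridisation between copies was not tested, so 1 abundant transcript and several that move together cannot be told apart here.

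At 17 dpp the Klk1b level followed the weight of the testis given in the labels, a relation noticed after the values were seen. Over 10 animals with testes of 9 to 19 mg the mean of the 9 probes correlated with weight at r = 0.89 (permutation p = 0.00035, two-sided) and at rho = 0.92 (p = 0.00045), with Benjamini-Hochberg adjusted values of 0.00105 and 0.00135 over the 3 relations computed. Without the 2 animals farthest from the median weight r was 0.83. Of all tested probes 0.307% had as high an r, and the 9 Klk1b probes had 0.72 to 0.92. Of these, Egfbp2, which passed the filter only through the knockout at 20 dpp, was detected on 0 of 6 arrays of each genotype at 17 dpp. Klk1b21 probe 2 was detected on 1 of 6 knockout and 0 of 6 heterozygous arrays, and probe 3 on 1 of 6 of each. The relation without these probes was not tested. In the 6 heterozygous animals alone r was 0.80 (exact permutation p = 0.0583, adjusted 0.0875) and rho was 0.71 (p = 0.136, adjusted 0.204). These 6 animals, which are among the 10 above, were also a reference in the choice of members. The p-values come from the same values in which the relation was noticed, so they only describe it. Litter and weight moved together. Litters 7, 8 and 9 hold 3, 4 and 3 animals, too few for a value each, and over all of them the deviations from the litter means had r = 0.53 (exact p = 0.106, permuted within litters), which is positive and misses the threshold at this size. At 20 dpp the pooled r over 14 animals was -0.01, rho was -0.12 and r was -0.22 without the 2 farthest animals. Nothing is read from these values, since the pool holds the knockout, which chose the members and had testes of 18 to 21.5 mg, beside wild type with 22 to 23.8 mg. The groups of 3 or 4 animals are too small for an r of their own. In the knockout the Klk1b mean was 7.33, 8.06, 8.28 and 8.68 at 18, 21.2, 21.3 and 21.5 mg, and in wild type it was 6.40, 7.35 and 6.95 at 22, 22.6 and 23.8 mg.

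**Figure D4:**
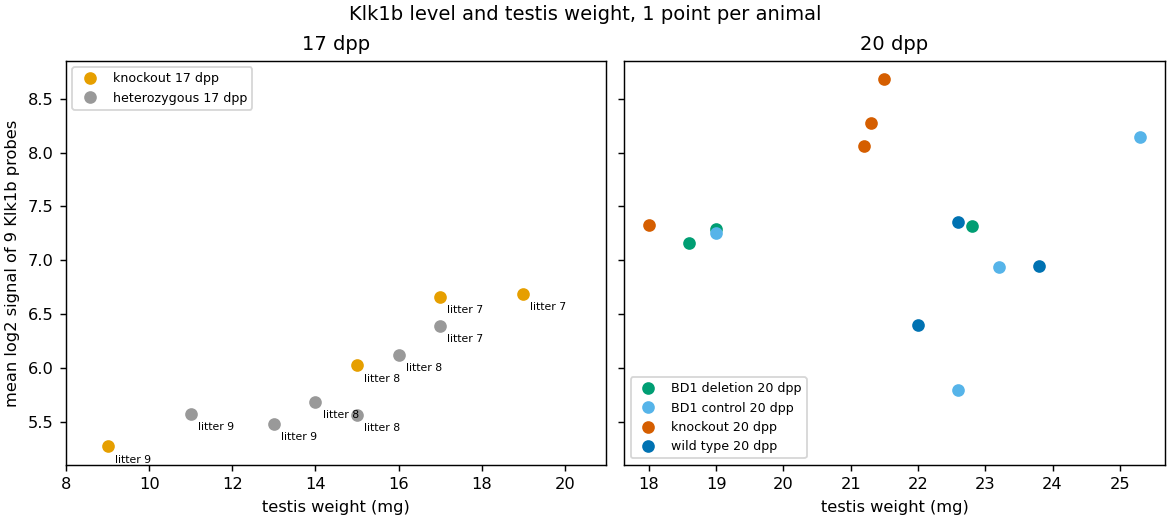
Mean log2 signal of the 9 Klk1b probes (vertical axis) against testis weight in mg (horizontal axis), 1 point per animal, at 17 dpp (left, with litters) and 20 dpp (right). At 17 dpp the 10 animals lie along a rising line on which the 3 animals of litter 7 are the highest, and at 20 dpp the 4 knockout animals lie to the left of the 3 wild-type animals.

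Other kallikreins gave almost no signal. Levels, differences and correlations of listed genes, here and below, come from the brightest kept probe of each gene. Their other probes are not shown, and the shares beside the gene counts are shares of probes. Of 23 listed genes, Klk1b22 among them, 20 had a probe and 18 of these were detected in no animal, including Klk1, Klk1b1, Klk1b5, Klk1b8, Klk1b9, Klk1b11 and Klk1b16 of the same cluster. Only Klk8, the kallikrein known as neuropsin, passed the filter. It rose by 0.82 ± 0.24 (SE) in the knockout against wild type at 20 dpp (limma, adjusted p = 0.00768), where it averaged 6.11 in the knockout and 5.29 in wild type. Klk8 was detected in 14 of 24 animals and its wild-type level is near background, so the size of its rise is not well measured. It lies just outside the rule, because heterozygous animals at 17 dpp averaged 6.56, and just inside it stands Egfbp2, with 5.84 in the knockout at 20 dpp against 4.81 in heterozygous animals at 17 dpp. Across the 24 animals Klk8 correlated with the Klk1b mean at -0.51.

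Of the known substrates and partners of kallikreins, the kininogens Kng1 and Kng2 and the kinin receptors Bdkrb1 and Bdkrb2 were detected in no animal. Of 22 listed genes of the kinin system and its substrates and inhibitors 12 passed the filter, and in the knockout at 20 dpp 6 rose and 2 fell, with a median difference of 0.59 against 0.22 over all tested probes, of which 53.8% were called. Serpina5, the inhibitor also called protein C inhibitor, rose by 0.71 ± 0.13 (adjusted p = 0.000163), and Cpe, a carboxypeptidase, rose by 0.83 ± 0.13 (adjusted p = 2.65e-05). The receptor of epidermal growth factor, Egfr, rose by 0.78 ± 0.29 (adjusted p = 0.0269), and the low affinity nerve growth factor receptor Ngfr fell by 2.13 on the log2 scale (adjusted p = 3.43e-06). Ngfr was detected in 10 of 24 animals and averaged 5.35 in the knockout, near background, so the size of its fall is not well measured. Serpina3n (0.95), Fn1 (0.70) and Mme (0.56) rose as well, and Cpn1, a carboxypeptidase subunit, fell by 1.11. Serpina3n was detected in 14 of 24 animals and averaged 5.31 in wild type, near background, so the size of its rise is not well measured. At 17 dpp 0 of the 12 were called. In the BD1 deletion 0 rose and 1 fell, Ngfr, by 1.11 (adjusted p = 0.0147).

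Leydig cell genes were called about as often as other probes. Of 20 listed genes 17 had a probe and 12 passed the filter, and of these 6 rose and 0 fell in the knockout against wild type at 20 dpp, with a median difference of 0.59 against 0.22 over all tested probes, of which 53.8% were called in either direction. Cyp11a1, which makes pregnenolone from cholesterol, rose by 1.00 ± 0.30 (adjusted p = 0.00771) and Insl3, the Leydig cell peptide hormone, by 0.58 ± 0.20 (adjusted p = 0.0168). The androgen-forming dehydrogenase Hsd17b3 (0.57), Hsd11b1 (0.67), Vcam1 (0.67) and the lipoprotein receptor Scarb1 (0.62) rose as well. Hsd17b3 was detected in 10 of 24 animals and averaged 5.10 in wild type, near background, so the size of its rise is not well measured. Cyp17a1, which makes androgen precursors, differed by 0.94 ± 0.43 (adjusted p = 0.0692). At 17 dpp 0 of the 12 were called, with a median of 0.05, and in the BD1 deletion 0 were called, with a median of 0.32. Across the 24 animals the Klk1b mean correlated with Insl3 at 0.73, with Cyp17a1 at 0.70 and with Cyp11a1 at 0.70, and within groups at 0.55, 0.62 and 0.48. The values over 24 animals include the knockout at 20 dpp, which chose the members. Of the other 9 Leydig cell genes measured, Star and Ptgds correlated at 0.38 and 0.40, and 7 were below 0, down to -0.63 for Dlk1, an early Leydig lineage gene. Within groups these 9 ran from -0.46 (Hsd11b1) to 0.32 (Ptgds), with Dlk1 at -0.38. The summed signal of the list, as log2, was 13.9 to 14.2 in the knockout and 13.1 to 13.6 in wild type at 20 dpp. Hsd3b1 and Hsd3b6, steroid dehydrogenases of Leydig cells, were detected in no animal.

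Genes of other cell types also changed in the same comparison, where 53.8% of all tested probes were called, with a median of 0.22. In the knockout against wild type at 20 dpp 7 of 11 Sertoli cell genes rose and 0 fell (median 0.56), 7 of 9 macrophage genes rose and 1 fell (median 0.82), among them Tyrobp (0.92), C1qb (1.03) and Csf1r (0.82), and 11 of 12 round spermatid genes fell and 0 rose (median -3.16). Several of the round spermatid genes averaged near background in the knockout, such as Acrv1 (4.58), Prm1 (4.57) and Catsper3 (4.70), so the size of their fall is not well measured. Of 8 pachytene spermatocyte genes 1 rose and 4 fell (median -0.44), and of these Ccna1, a meiotic cyclin, fell by 5.03. The summed signal of the round spermatid list, as log2, was 14.5 to 15.3 in the knockout and 15.7 to 15.8 in wild type. Most of that sum is Ldhc, which averaged 14.9 and 15.3 there and was not called (limma, adjusted p = 0.390). Ldhc also averaged 14.7 in heterozygous animals at 17 dpp, so the sum says little about the genes that fell. The summed Sertoli signal was 15.2 to 15.4 in the knockout and 14.5 to 14.8 in wild type. In whole testis, more or fewer cells of a type and more or less RNA per cell cannot be told apart, and the part of these shifts in the Klk1b values was not tested. In the BD1 deletion, where no Klk1b probe was called, 8 of the 12 round spermatid genes fell, 2 of the 11 Sertoli cell genes rose and 1 of the 9 macrophage genes fell, where 7.63% of all tested probes were called. At 17 dpp 2 of the 8 pachytene spermatocyte genes fell, and 0 Sertoli, macrophage or round spermatid genes were called, where 1.21% of all tested probes were. Of 3 submandibular gland genes measured, Amy1 rose by 0.60 and Dcpp1 fell by 0.88 in the knockout at 20 dpp, and Smr2, Smr3a, Prol1, Bpifa2 and Pip were detected in no animal. Dcpp1 averaged 4.76 in that knockout, near background, so the size of its fall is not well measured either. Of 2 epididymis genes measured 0 were called, and Lcn8, Lcn9, Rnase10 and Defb12 were detected in no animal, while the summed signal of Adam7 and Spag11a, as log2, spanned 5.57 to 8.50 in the knockout and 6.08 to 6.64 in wild type at 20 dpp, and the 2 genes correlated with the Klk1b mean at 0.25 and -0.14.

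The 5 genes outside the kallikreins with the pattern most like the Klk1b mean over the 24 animals were Ugt1a10 (r = 0.96), Ugt1a6a (0.87), Ugt1a6b (0.86), Kel (0.86) and Aqp8 (0.86). Within groups the correlations were 0.86 for Ugt1a10, 0.72 for Ugt1a6a, 0.88 for Ugt1a6b, 0.48 for Kel and 0.70 for Aqp8. Kel was detected in 10 of 24 animals and the Ugt1a6a probe in 11. At 17 dpp Kel averaged 4.87 in the knockout and 4.73 in heterozygous animals, and Ugt1a6a 5.39 and 5.20, near background. Ugt1a10, Ugt1a6a and Ugt1a6b are glucuronosyltransferases of 1 locus on chromosome 1 that share sequence, so their probes may not tell them apart. Other probes of Ugt1a10 had 0.78, and those of Ugt1a6a had 0.86 and 0.63, the last from a probe detected in 3 animals. Kel encodes a membrane metalloprotease and Aqp8 a water channel. The points share arrays, groups and ages, and include the knockout at 20 dpp, whose values chose the members. A likeness over all 24 animals is thus partly set by that choice. The members themselves correlated with their own mean at 0.96 to 0.99, or 0.79 for Egfbp2. Ugt1a10 averaged 9.27 in the knockout and 8.67 in wild type at 20 dpp, and 8.18 in the knockout and 8.02 in heterozygous animals at 17 dpp.

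**Figure D5:**
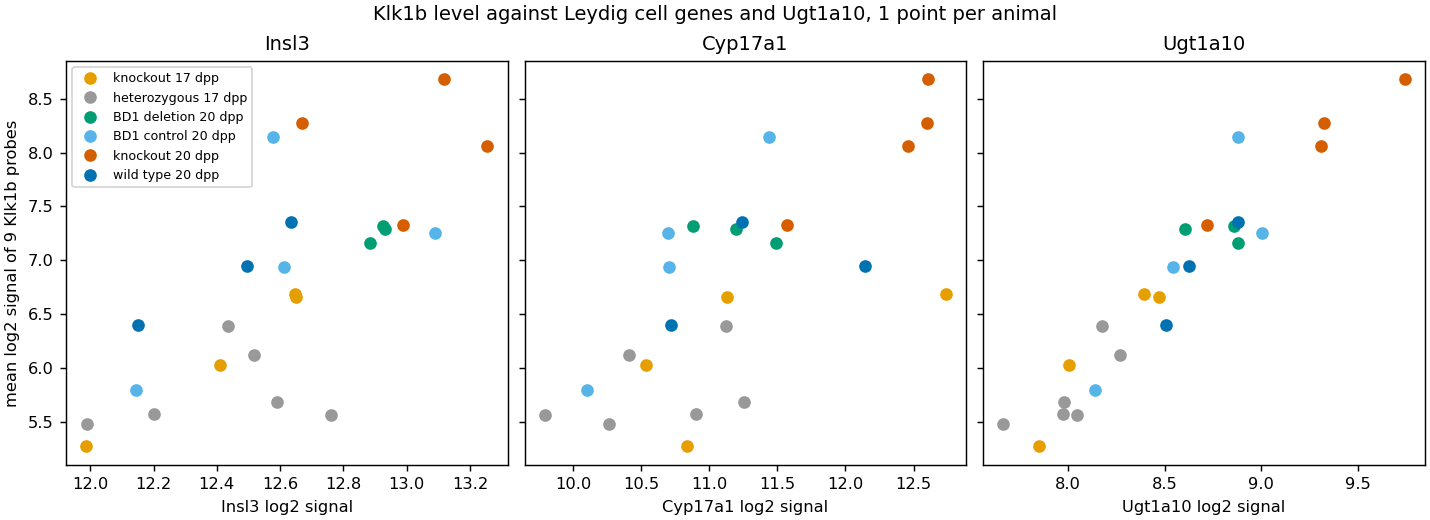
Mean log2 signal of the 9 Klk1b probes (vertical axis) against the log2 signal of Insl3, Cyp17a1 and Ugt1a10 (horizontal axes), 1 point per animal and 1 colour per group, 24 animals. The points lie closer to a line for Ugt1a10 (r = 0.96) than for Insl3 (0.73) and Cyp17a1 (0.70). Ugt1a10 and its probe were picked for the highest r among genes outside the kallikreins, so this order was set by the choice. Other probes of Ugt1a10 had 0.78.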

How the data were processed

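Testis RNA of 24 mice was measured on 36 bead arrays. The authors deposited linear intensity values per probe, read out in GenomeStudio 2011.1 according to the submitters' processing notes, beside detection p-values, and a matrix of processed intensity that served here as an alternative. Whether background was subtracted before deposit is not stated in the notes or labels. Signals were corrected with normexp, quantile-normalized and log2-transformed by neqc in limma 3.58.1 (offset 16, R 4.3.3), and arrays of 1 animal were averaged. Probes detected (p under 0.01 on all arrays of an animal) in at least 3 animals were kept, which left 21190 of 45281. A linear model over the 6 groups was fitted with lmFit and eBayes (trend), with Benjamini-Hochberg adjustment over these probes and calls at an adjusted p under 0.05, and the fit was tested on simulated data. Of the probes on the array, 34885 carried 1 symbol in the platform annotation, 18 carried several and 10378 are unnamed here, and symbols were updated by Entrez identifier through RefSeq for 34807.

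The members and gene lists were chosen with earlier results of these data known. The named genes were every member probe, the other kallikreins with a detected probe, called genes of the lists (at most 6 a list, smallest adjusted p first), and the 5 genes outside the kallikreins most correlated with the Klk1b mean. Klk1b22, markers that were not called and undetected list genes, chosen after their values were seen, are named too. Precision is limited by the number of animals. The permutation p-values given above came from 100000 resamples, except that all orders were taken for the 6 heterozygous animals and for permutation within litters. Alternatives were other background correction and scaling, the authors' matrix, other filters, litter, animal and replicate blocks, fewer groups, and each animal left out.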

Additional observations from a re-analysis of the deposited data

How the results depend on the processing

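No Klk1b probe was called under any of the 18 alternatives for the BD1 deletion, 19 for the knockout at 17 dpp and 25 for the difference between both effects. The lowest adjusted p values there were 0.282 to 0.809, 0.0511 to 0.719 and 0.258 to 0.935. Both 0.0511 and 0.258 came from the setting with no filter on dim probes, which adds Klk1b26 probe 2, detected on 0 of 36 arrays. Among the 9 kept probes the lowest adjusted p at 17 dpp (limma) was 0.44, at Klk1b27 probe 1. Over 9 probes the median difference of the knockout from wild type at 20 dpp lay between 0.80 and 1.60, and that from heterozygous animals at 17 dpp between 1.31 and 2.77, at 1.31 both without background correction and with the authors' matrix. At 17 dpp the difference of Klk1b21 probe 3 turned to -0.0058 without background correction, -0.0074 under median scaling, -0.0059 with the authors' matrix, -0.18 with litter as a block and -0.047 with animal as a random block over 36 arrays, and lay between -0.20 and 0.19 with each animal left out. Klk1b27 probe 2 turned to -0.049 with litter as a block. The cause was not tested. With each animal left out, the BD1 differences lay between -0.26 and 0.65 (Klk1b21 probe 1), -0.085 and 0.59 (probe 2), -0.18 and 0.59 (probe 3), -0.10 and 0.70 (Klk1b24 probe 1), -0.32 and 0.54 (probe 2), -0.049 and 0.67 (Klk1b26 probe 1), -0.40 and 0.66 (Klk1b27 probe 1), -0.26 and 0.75 (probe 2), and -0.092 and 0.17 (Egfbp2, not well above background in controls). The correlation with testis weight at 20 dpp was 0.035 without background correction and 0.035 with the authors' matrix, and -0.20 to 0.10 with each animal left out. Dim probes limit Egfbp2 and Klk1b21 probes 2 and 3.

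The replicate numbers of the labels count arrays within a group and do not pair animals. With the replicate block over 36 arrays 0 probes were called for the BD1 deletion (lowest adjusted p 0.351) and 0 for the knockout at 17 dpp (0.584), and Klk1b21 probe 3 stood at -0.10 there.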

Other observations

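An unnamed probe, chosen after its values were seen, correlated with the Klk1b mean over the 24 animals at 0.98, and at 0.96 within groups, which ranks it above 4 of the 9 Klk1b probes. It averaged 6.40 in the knockout and 5.98 in heterozygous animals at 17 dpp, 7.29 in the BD1 deletion and 7.16 in its controls, and 8.07 in the knockout and 7.15 in wild type at 20 dpp on the log2 scale. In 36 checks, of 9 Klk1b probes in the 4 groups of at least 4 animals, 0 found 1 animal far from the others.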
